A study of Mus musculus with 6 samples.

Results

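Rere circRNAs are circles of RNA made from exons of the mouse gene Rere (ENSMUSG00000039852.9, chr4:149655755-149996075, plus strand, mm9). They were chosen by position, as every circRNA of the deposited count table on the plus strand of chromosome 4 that lay within the bounds of the gene, and 13 of the 3662 circRNAs of the table met this rule. The gene itself was singled out because the table lists many isoforms for it, so the number of isoforms is a description. No plus-strand circRNA crossed a bound of the gene. The nearest plus-strand circRNAs outside it came from Fbxo42 (chr4:140723628-140736447, 100 reads) and Nol9 (chr4:151419804-151420753, 13 reads). Only Arhgap10, with 20, had more circRNAs among the 2017 parental genes, and Slc10a7 and Fndc3b had 11 each. By reads, Rere ranked only 34 among the parental genes, with 909 of 243190 back-splice reads (0.374%).

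The circRNAs were measured in primary preadipocytes of white adipose tissue (WAT), grown from the stromal vascular fraction of the inguinal fat pad of female C57BL/6 mice (C57BL/6J background in the methods) at 6 weeks of age. Cells were taken at confluence (D0, proliferation stage), after 4 days with insulin, dexamethasone and 3-isobutyl-methylxanthine (D4, premature stage), and after another 4 days with insulin and T3 (D8, mature stage), with 2 replicate libraries per stage and 6 in all. All cells shared the strain, the depot and serum-containing medium. The stromal vascular fraction is a mixture that can hold endothelial and immune cells beside preadipocytes, rRNA and linear RNA had been removed before sequencing, and the replicates are called biological without a statement on separate animals, so p-values measure only the spread between these libraries.

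Rere encodes the arginine-glutamic acid dipeptide repeats protein, also called atrophin-2. It is a nuclear co-regulator of the atrophin family that recruits histone deacetylases and the histone methyltransferase G9a to nuclear receptors and takes part in retinoic acid signalling in the embryo. A circRNA forms when the splice donor at the end of an exon joins an acceptor upstream of it, a step known as back-splicing. The closed circle has no free ends and resists the exonuclease that digests linear RNA, and a read across the back-splice junction identifies it. Genes with long introns can give several circles when different acceptors and donors are paired.

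The junctions of the 7 most abundant isoforms are shown because the reads counted here are reads across them. Each runs 5′ to 3′ across the joint, with the end of the last exon in lower case and the start of the first exon in capitals, from the mm9 genome, plus strand of chromosome 4.

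mmu_circ_0001298 (exons 4 to 7, chr4:149813452-149851577): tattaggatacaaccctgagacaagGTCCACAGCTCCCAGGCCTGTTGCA
mmu_circ_0001300 (exons 4 to 10, chr4:149813452-149884147): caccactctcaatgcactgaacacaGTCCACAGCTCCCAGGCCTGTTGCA
mmu_circ_0001299 (exons 4 to 8, chr4:149813452-149874160): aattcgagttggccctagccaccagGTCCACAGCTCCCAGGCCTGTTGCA
mmu_circ_0001301 (exons 4 to 11, chr4:149813452-149909054): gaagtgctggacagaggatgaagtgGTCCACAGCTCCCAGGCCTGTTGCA
mmu_circ_0001297 (exons 3 and 4, chr4:149805632-149813577): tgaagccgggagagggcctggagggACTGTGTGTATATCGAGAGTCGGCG
mmu_circ_0001303 (exons 5 to 10, chr4:149842804-149884147): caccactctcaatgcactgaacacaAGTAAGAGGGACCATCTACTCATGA
mmu_circ_0001305 (exons 8 to 10, chr4:149874112-149884147): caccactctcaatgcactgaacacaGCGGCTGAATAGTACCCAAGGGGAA

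The top 4 lines end in the same capitals, because 4 of the 7 circles begin with exon 4. mmu_circ_0001300, mmu_circ_0001303 and mmu_circ_0001305 share their lower-case part, the end of exon 10, and differ only in the exon it was joined to. Within each of these groups only the other side of the joint tells the circles apart.

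The shortest circle and the 3-exon circle of exons 8 to 10 are shown whole, spliced, with the 25 bases next to the joint in capitals at each end. No intron was counted in, since the files give only the ends of a circle and the exons between them were taken from the annotation.

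mmu_circ_0001297 (197 bases): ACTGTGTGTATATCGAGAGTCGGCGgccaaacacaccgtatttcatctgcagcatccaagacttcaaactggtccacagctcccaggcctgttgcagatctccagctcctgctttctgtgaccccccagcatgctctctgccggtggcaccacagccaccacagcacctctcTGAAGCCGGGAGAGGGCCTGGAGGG
mmu_circ_0001305 (274 bases): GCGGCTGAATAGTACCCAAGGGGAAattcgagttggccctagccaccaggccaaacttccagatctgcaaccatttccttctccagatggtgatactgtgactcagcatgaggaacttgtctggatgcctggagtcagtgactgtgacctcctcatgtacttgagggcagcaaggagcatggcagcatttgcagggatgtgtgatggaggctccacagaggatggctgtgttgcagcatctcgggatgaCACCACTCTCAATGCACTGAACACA

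Back-splicing at Rere used few exon boundaries many times. In the transcript Rere-001, which has 23 exons and its start codon in exon 2, 12 of the 13 circles lay within exons 3 to 11 and held 903 of the 909 reads. They began at 4 exons (3, 4, 5 and 8) and ended at 6 (4, 6, 7, 8, 10 and 11), and 12 of the 20 pairs that these starts and ends allow were listed. The remaining circle held exons 12 to 14. Exon 4 alone began 5 circles. Of the 3102 start positions in the table, 5 had 5 or more circRNAs and the most at any start was 6.

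The last 20 intron bases before each of the 4 common start exons are shown with the AG of the acceptor in capitals, and the opening 20 intron bases after exons 7 and 10, the ends with the most reads, with the GT of the donor in capitals.

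Acceptor of exon 3 (chr4:149805612-149805631): ccttcctttttcttttaaAG
Acceptor of exon 4 (chr4:149813432-149813451): aaaactcttttctcttttAG
Acceptor of exon 5 (chr4:149842784-149842803): tgttagattttccttttcAG
Acceptor of exon 8 (chr4:149874092-149874111): ttgtgttctcttcactgcAG
Donor of exon 7 (chr4:149851578-149851597): GTaagtcagtcacttatggc
Donor of exon 10 (chr4:149884148-149884167): GTaagtctccggatgtcatt

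All 13 circles had both ends at annotated exon ends, as had 3361 of the 3662 circRNAs of the table (91.8%), and all 13 were flanked by AG and GT. Every one lay wholly within coding sequence. The spliced length ranged from 197 to 807 bases and was a multiple of 3 in 6 of the 13. Its median was 434 bases, beside 443 over the table. The circles held 2 to 8 exons, with a median of 4 against 3 over the table.

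The Rere circles bridged long stretches of the genome. Their genomic spans ran from 7946 to 95603 bases with a median of 41344, where the median circRNA of the table spanned 7491.5. The intron before the circle had a median of 22534 bases and the one after it 24808 bases. Over the 3330 circRNAs with both flanking introns annotated, these medians were 10432 and 8134.5 bases. The 13 circles share starts and ends and are not independent, so no test was made.

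Inverted matches between the flanking introns, sequence that can pair across an exon block, were searched for in the 1000 bases next to each circle. They were found for 3 of the 13 circles, and for 500 of the 3330 circRNAs of the table (15%). mmu_circ_0001298 had a match of 105 bases at 73.3% identity, mmu_circ_0001299 one of 150 bases at 76.0% and mmu_circ_0011442 one of 89 bases at 78.7%. A match describes the sequence alone and was not related to any level.

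circBase, a public catalogue of circRNAs, holds 11 of the 13 circles. The circles of exons 4 to 6 (chr4:149813452-149844500) and of exons 12 to 14 (chr4:149944325-149986188) carry no circBase name and are called here Rere e4-e6 and Rere e12-e14. They held 4.84% of the Rere reads. Over all circRNAs, 64.4% had a circBase name.

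**Figure D1:**
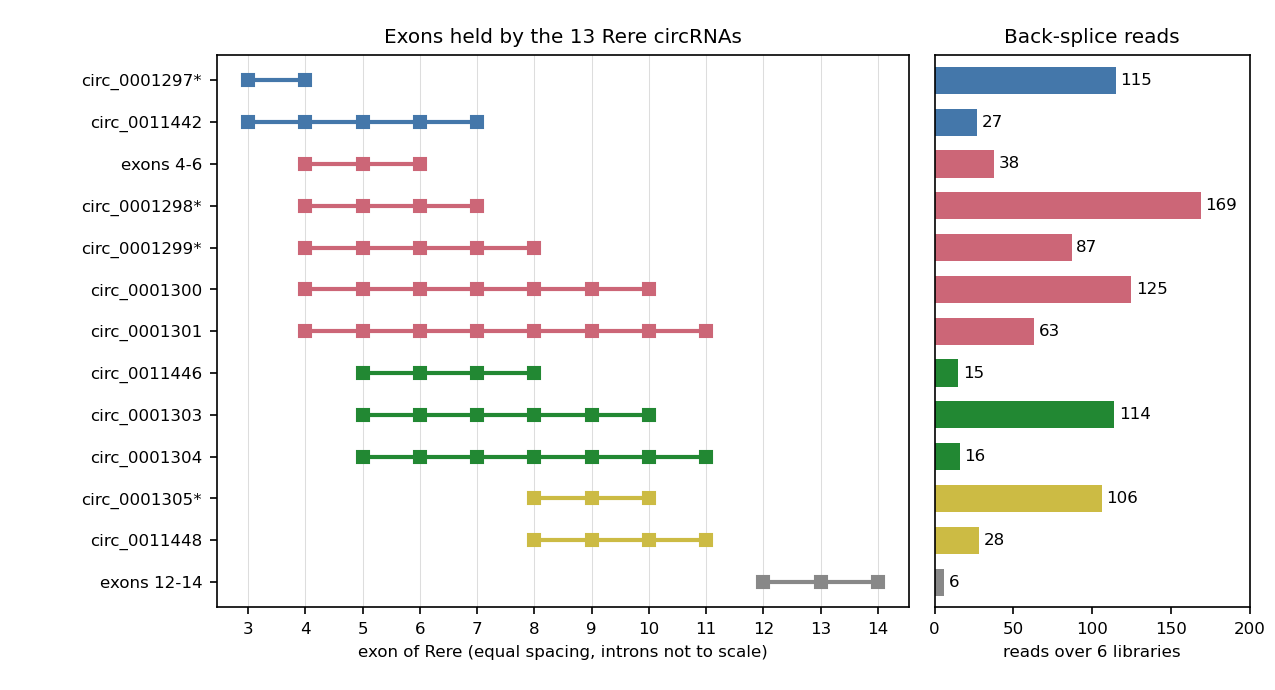
Exons held by each of the 13 Rere circRNAs (left, exon number at equal spacing, introns not to scale; color marks the start exon) and back-splice reads of each over the 6 libraries (right, linear axis from 0). An asterisk marks a circle with 0 reads in 1 replicate of a stage and at least 10 in the other; 12 circles lie on exons 3 to 11, and mmu_circ_0001298 has the most reads, 169.

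The libraries held 30110 to 50672 back-splice reads in all, of which 77 and 114 at D0, 159 and 238 at D4, and 127 and 194 at D8 (replicate 1, then replicate 2) came from Rere. At this depth 1 read was worth 19.7 to 33.2 circCPM, that is, back-splice reads per 1000000 such reads of the library. A circle is counted at its single joint, so these levels need no scaling by length. No value of the table equals 1, and a circle listed at 0 may have had a read that was not kept. For this reason no upper limit is given for values at 0. Of the cell type markers, endothelial genes gave no circRNA (0 of 6) and immune genes 1 of 6, Adgre1, at 220 and 78.9 circCPM in the D8 libraries and 0 in the others. Adipocyte genes (7 of 17 with a circRNA) summed to 2823 and 1640 circCPM at D0, 3460 and 3841 at D4, and 8816 and 8032 at D8. Pparg, the master regulator of adipogenesis, was at 0 in both D0 libraries and at 302 to 572 in the other 4. Preadipocyte genes gave a circRNA for 1 of 11, Pdgfra, at 266 and 310 circCPM at D0, 69.7 and 0 at D4, and 88.2 and 98.7 at D8. The part of these markers in the results on Rere was not tested.

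A property of the counts bears on every Rere result. In 4 of the 13 circles a replicate was listed at 0 while the other replicate of the same stage had 10 reads or more, which is called an isolated 0 here. This held for 30.8% of the Rere circles and for 294 of the 3662 circRNAs of the table (8.03%). Of the other genes with the most circRNAs, Slc10a7 had 3 such circles of 11, Arhgap10 1 of 20 and Fndc3b 1 of 11. Among circRNAs with 60 or more reads, where an isolated 0 is easier to meet, it held for 98 of 910 (10.8%), and all 4 Rere cases were among the 7 Rere circles of that size. These 4 circles (mmu_circ_0001298, mmu_circ_0001297, mmu_circ_0001305 and mmu_circ_0001299) held 52.5% of the Rere reads. The tests of totals and shares are therefore given with and without them. A circle whose zeros fall in 1 replicate differs between replicates by construction, so leaving these out also removes the most uneven circRNAs of all genes.

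mmu_circ_0001298, exons 4 to 7, had the most reads of all, 169 (18.6% of the Rere reads). It had 18 and 29 reads at D0, 0 and 65 at D4, and 0 and 57 at D8. Its level was 748 ± 212 circCPM at D0, 780 ± 1103 at D4 and 562 ± 795 at D8 (mean ± SD, n = 2 per stage, as for all such values below). Both D0 libraries lay between the high and the 0 library of the other stages. The circle met the rule for entry into the table, 2 or more reads in both libraries of a stage, through D0 alone. Neither D0 library could therefore be at 0, and its differences between stages are a description. Neither boundary of the circle was silent in the libraries where it was at 0. The exon 4 start was joined to exon 10 in 33 reads of D4 replicate 1 and 14 of D8 replicate 1, and the exon 7 end was joined to exon 3 in 7 reads of each.

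mmu_circ_0001300, exons 4 to 10, had close replicates at D0 and D4. It had 8 and 10 reads at D0, 33 and 34 at D4, and 14 and 26 at D8, which are 266 and 310, 766 and 816, and 309 and 513 circCPM. Both D4 libraries were above both libraries of D0 and of D8, while D8 and D0 overlapped. This pattern, both D4 above both D0, was met by 29.9% of the 910 circRNAs whose mean was at least 10 reads, and both D4 above both D8 by 26.5%. The fitted log2 fold change from D0 to D4 was 1.54 (SE 0.51), with an edgeR p of 0.0177 that adjustment over 1407 circRNAs raised to 0.142. From D0 to D8 it was 0.60 (SE 0.52, edgeR adjusted p = 0.571, 0.95 without D8 replicate 1 and 0.24 without D8 replicate 2). From D4 to D8 it was -0.94 (SE 0.48, edgeR adjusted p = 0.482, -0.62 without D8 replicate 1 and -1.33 without D8 replicate 2). The test over all 3 stages gave an edgeR adjusted p of 0.223, and 0.105 to 0.566 over the alternative settings.

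mmu_circ_0001297, exons 3 and 4, was the shortest circle, and its last exon is the one that the exon 4 circles begin with. It had 9 and 25 reads at D0, 0 and 28 at D4, and 22 and 31 at D8. Its level was 536 ± 336 circCPM at D0, 336 ± 475 at D4 and 548 ± 89.7 at D8, and the stages overlapped. In D4 replicate 1, where it was at 0, the other circle that starts at exon 3, mmu_circ_0011442, had 7 reads.

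mmu_circ_0001303, exons 5 to 10, had 9 and 8 reads at D0, 15 and 30 at D4, and 39 and 13 at D8. It reached 860 circCPM in D8 replicate 1 and only 257 in D8 replicate 2, a level within the D0 range of 248 to 299. Both D4 libraries, at 348 and 720, were above both D0 libraries. The fitted log2 fold changes were 1.05 from D0 to D4 (SE 0.74, edgeR adjusted p = 0.496) and 1.12 from D0 to D8 (SE 0.74, edgeR adjusted p = 0.467). The change from D0 to D4 was 0.50 without D4 replicate 2, and that from D0 to D8 was 0.03 without D8 replicate 1 and 1.78 without D8 replicate 2.

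mmu_circ_0001305, exons 8 to 10, had 12 and 6 reads at D0, 26 and 23 at D4, and 0 and 39 at D8. Both D4 libraries, at 604 and 552 circCPM, were above both D0 libraries, at 399 and 186, and the D8 libraries lay below and above all the others. mmu_circ_0001299, exons 4 to 8, had 11 and 10 reads at D0, 35 and 13 at D4, and 18 and 0 at D8. Here the 0 was in D8 replicate 2, whereas the other isolated zeros were in replicate 1. mmu_circ_0001301, exons 4 to 11 and the longest circle, had overlapping levels at all stages, with 6 and 11 reads at D0, 13 and 14 at D4, and 15 and 4 at D8. Its fitted log2 fold changes were 0.33 from D0 to D4 (SE 0.84) and -0.31 from D0 to D8 (SE 0.86). The change from D0 to D4 was 0.03 without D0 replicate 1 and 0.77 without D0 replicate 2. That from D0 to D8 had no stable sign, being -0.60 without D0 replicate 1, 0.14 without D0 replicate 2, -1.62 without D8 replicate 1 (SE 1.11) and 0.43 without D8 replicate 2.

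**Figure D2:**
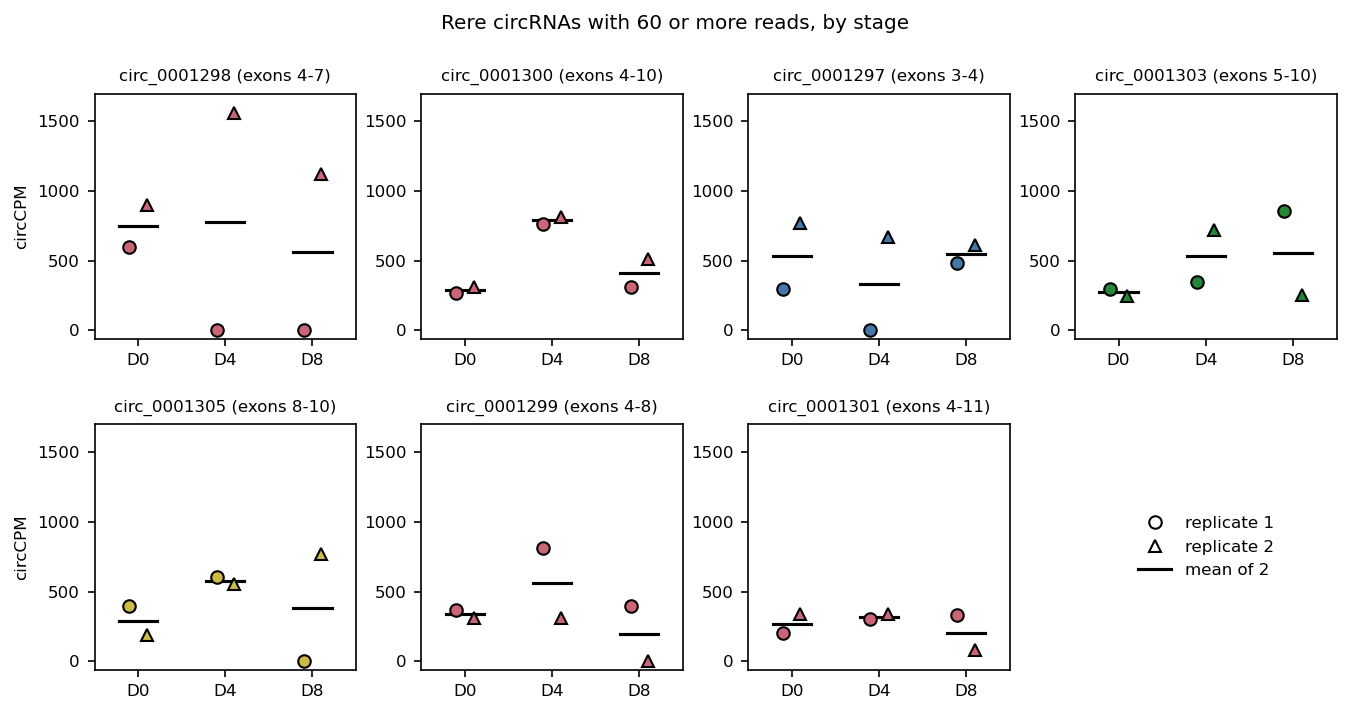
Level of the 7 Rere circRNAs with 60 or more reads by stage, in circCPM on a linear axis, with a circle for replicate 1, a triangle for replicate 2 and a bar for the mean of 2. The replicates of mmu_circ_0001300 lie close together at D0 and D4 and both D4 libraries are above the others, while mmu_circ_0001298 is at 0 in replicate 1 of D4 and D8.

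These 7 isoforms held 779 of the 909 reads (85.7%) and are those that passed the filter on low counts, so they do not stand for all 13. In the edgeR quasi-likelihood test over all 3 stages, 0 of the 7 passed an adjusted p of 0.05, where 1.14% of the 1407 circRNAs tested did. None passed from D0 to D4 (background 3.27%), from D0 to D8 (1.49%) or from D4 to D8 (0.0711%). The count was 0 of 7 with DESeq2 too. Before adjustment, mmu_circ_0001300 alone had an edgeR p under 0.05, at 0.0421 over all 3 stages and at 0.0177 from D0 to D4. The median fitted log2 fold change of the 7 was 0.83 from D0 to D4, with 6 of 7 above 0, beside 0.03 over all circRNAs tested, of which 51.5% were above 0. Without D4 replicate 2 it was 0.50, with 5 of 7 above 0. From D0 to D8 it was 0.12 with 4 of 7 above 0, but -0.36 without D0 replicate 1, 0.31 without D8 replicate 1 and 0.24 without D8 replicate 2, so it had no stable sign. From D4 to D8 it was -0.58 with 2 of 7 above 0. The 3 of the 7 that had no isolated 0 gave medians of 0.98, 0.55 and -0.63 in these contrasts in the fit without such circRNAs. These medians come from isoforms of the same gene in the same libraries and carry no test.

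The other 6 isoforms had 6 to 38 reads each. Rere e4-e6 had 2 and 6 reads at D0, 17 and 6 at D4, and 0 and 7 at D8. mmu_circ_0011448 (exons 8 to 11, chr4:149874112-149909054) had 0 and 4, 6 and 9, and 0 and 9, and mmu_circ_0011442 (exons 3 to 7, chr4:149805632-149851577) had 2 and 2, 7 and 7, and 7 and 2. mmu_circ_0001304 (exons 5 to 11, chr4:149842804-149909054) was listed at 0 at D0 and had 5 and 7 reads at D4 and 0 and 4 at D8. mmu_circ_0011446 (exons 5 to 8, chr4:149842804-149874160) had 0 and 3, 2 and 2, and 8 and 0. As mmu_circ_0011448, mmu_circ_0001304 and mmu_circ_0011446 met the rule for entry into the table through D4 alone, their differences between stages are a description.

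Rere e12-e14, the circle that shares no exon with the others, was listed at 0 in the 4 libraries of D0 and D4 and had 4 and 2 reads at D8. It met the rule for entry into the table through D8 alone, so its difference between stages is a description, and 6 reads in all stand behind it. It was too low to be tested with the filter. With no filter, the edgeR test over all 3 stages gave it an adjusted p of 0.0457, where 10.8% of the 3662 circRNAs passed, and none of its contrasts passed. As its entry through D8 fixed the direction, nothing is read from this p.

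By the study's rule of 2 or more reads in both replicates, 9 of the 13 isoforms were detected at D0, 10 at D4 and 6 at D8, beside 57.6%, 58.7% and 64.5% of all circRNAs of the table. Of these, 4 were detected at all 3 stages (mmu_circ_0001300, mmu_circ_0001303, mmu_circ_0001301 and mmu_circ_0011442), and they held 329 reads (36.2%). Another 4 were detected at 2 stages and 5 at 1 stage. Over the table, 27.6% of circRNAs were detected at 3 stages, 25.5% at 2 and 46.8% at 1. mmu_circ_0001298, the isoform with the most reads, counted as detected at D0 only, because of its 0 in replicate 1 of D4 and of D8. With 2 or more reads in either replicate, all 13 counted as detected at D8, which then had the most isoforms instead of the fewest.

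Summed over the 13 isoforms, Rere circles were at 2557 and 3528 circCPM at D0, 3692 and 5713 at D4, and 2799 and 3829 at D8. Both D4 libraries were above both D0 libraries, which 26.9% of 837 parental genes with a mean of 10 or more reads showed as well. The D8 libraries overlapped those of both other stages. The means were 3043 ± 687 at D0, 4702 ± 1429 at D4 and 3314 ± 728 at D8. The ranges of mean ± SD overlapped for every pair of stages. An exact permutation test over the 6 libraries of the highest over the lowest stage mean, 1.55, gave p = 0.333, where the smallest p that 15 arrangements allow is 0.0667. Without the isoforms that had an isolated 0 the ratio was 2.17 (exact permutation test, p = 0.133). These sums, and the fits of them below, hold circles that entered the table through a single stage, which favours that stage.

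Among 1108 parental genes with circRNA reads summed per gene, Rere gave an edgeR adjusted p of 0.190 over the 3 stages, where 8.94% of genes passed 0.05. The log2 fold change was 0.77 from D0 to D4 (SE 0.29, edgeR adjusted p = 0.135, background 8.66%), 0.20 from D0 to D8 (SE 0.29, edgeR adjusted p = 0.727, background 6.5%) and -0.57 from D4 to D8 (SE 0.29, edgeR adjusted p = 0.345, background 0.0903%). With a library left out, these ran from 0.50 (without D4 replicate 2) to 1.04 (without D0 replicate 2 or D4 replicate 1), from 0.01 (without D8 replicate 2) to 0.47 (without D0 replicate 2), and from -0.84 (without D4 replicate 1) to -0.25 (without D4 replicate 2). From D0 to D8 the change was 0.03 without D0 replicate 1 and 0.41 without D8 replicate 1, and from D4 to D8 it was -0.37 without D8 replicate 1. Over the alternatives the adjusted p of the stage test ran from 0.0182 to 0.663.

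The lowest of these values came with circRNAs that had an isolated 0 left out of every gene. The 9 Rere isoforms left then summed to 897 and 1362 circCPM at D0, 2275 and 2617 at D4, and 1918 and 1322 at D8. Both D4 libraries were above all the others. The edgeR adjusted p over the stages was 0.0182 and the log2 fold change from D0 to D4 was 1.26 (SE 0.34, edgeR adjusted p = 0.0105). Of these isoforms, mmu_circ_0011448, mmu_circ_0001304 and mmu_circ_0011446 entered the table through D4 alone, and Rere e12-e14 through D8 alone. Entry through D4 favours a higher sum at D4, so nothing is read from these p-values. In that fit 29% of 991 genes passed over the stages and 20.4% from D0 to D4, so that far more genes passed in general. From D0 to D8 the log2 fold change was 0.62 (SE 0.34, edgeR adjusted p = 0.216, background 20.6%), and from D4 to D8 -0.64 (SE 0.31, edgeR adjusted p = 0.208, background 8.17%). The 4 isoforms left out summed to 1661 and 2167 at D0, 1416 and 3097 at D4, and 882 and 2506 at D8, with replicate 2 the higher at each stage.

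**Figure D3:**
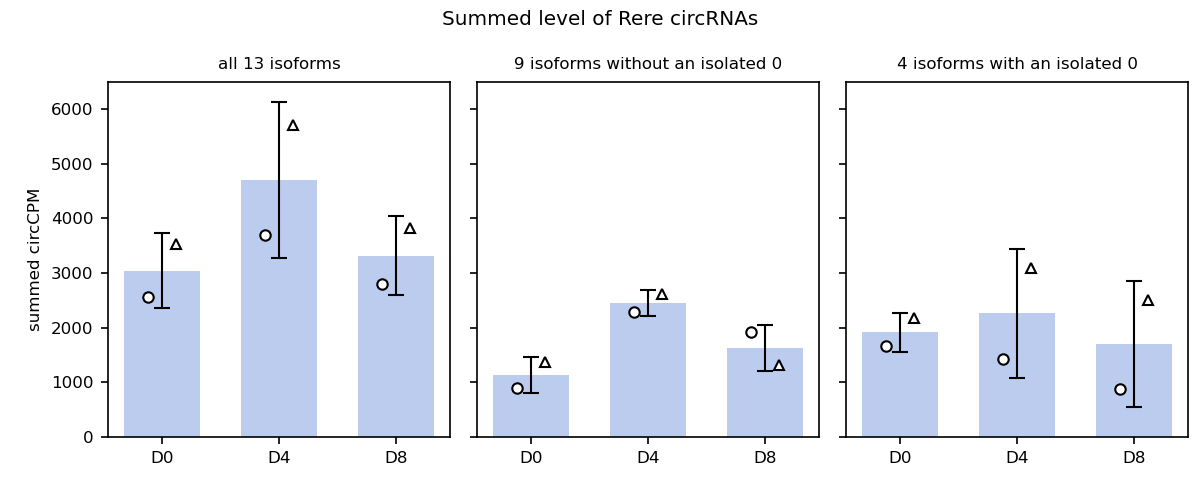
Summed level of all 13 Rere isoforms, of the 9 without and the 4 with an isolated 0, in circCPM by stage on a shared linear axis from 0 (bars, mean of 2 libraries; lines, SD; circles and triangles, replicates 1 and 2). The D4 bar is the highest in each panel, and the SD of the 4 isoforms is 1188 circCPM at D4 and 1149 at D8.

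How the reads of Rere were divided among its isoforms was then compared between stages. The share of mmu_circ_0001298 was 23.4% and 25.4% at D0, 0% and 27.3% at D4, and 0% and 29.4% at D8. Where the circle was seen, its share varied little, with 95% Wilson intervals that all overlapped, from 15.3 to 34.0% in D0 replicate 1 to 23.4 to 36.1% in D8 replicate 2. Intervals cover counting error only, as the reads carried no molecular identifiers and can be copies of each other. The stage means differed by at most 10.8 percentage points (exact permutation test over libraries, p = 1), and by 24.4 points without D4 replicate 2 or without D8 replicate 2. Without the isoforms that had an isolated 0 mmu_circ_0001300 led, and the stage means of its share differed by at most 6.25 points (exact permutation test, p = 0.8). mmu_circ_0001300 held 10.4% and 8.77% at D0, 20.8% and 14.3% at D4, and 11.02% and 13.4% at D8. The share of mmu_circ_0001303 stood out in D8 replicate 1, at 30.7% (23.4 to 39.2%), against 6.70% (3.96 to 11.1%) in D8 replicate 2, and these intervals did not overlap.

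Circles that begin at exon 4 held the largest share of reads in all libraries but D8 replicate 1, where they were level with those of exon 5. Their share was 58.4% and 57.9% at D0, 61.6% and 55.5% at D4, and 37.0% and 48.5% at D8. Both D8 libraries were thus below the other 4. The stage means ranged over 15.8 percentage points (exact permutation test, p = 0.2), and over 10.1 points without D8 replicate 1. Without the isoforms that had an isolated 0 they ranged over 16.03 points (exact permutation test, p = 0.467). The order of the libraries did not hold there, since D8 replicate 2 was above D4 replicate 2. With 482 reads in all, exon 4 began 53.0% of the Rere reads.

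Exon 5 began 11.7% and 9.65% at D0, 13.8% and 16.4% at D4, and 37.0% and 8.76% at D8. Exon 3 began 14.3% and 23.7%, 4.40% and 14.7%, and 22.8% and 17.01%. Exon 8 began 15.6% and 8.77%, 20.1% and 13.4%, and 0% and 24.7%. The D8 replicates therefore divided their reads in opposite ways: exon 8 began no read of replicate 1 and 48 of 194 reads of replicate 2, and exon 5 began 47 of 127 reads of replicate 1 and 17 of 194 of replicate 2.

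At the other side of the joint, exon 10 ended 345 of the 909 reads (38.0%), in shares of 37.7% and 21.1% at D0, 46.5% and 36.6% at D4, and 41.7% and 40.2% at D8. Exon 7 ended 196 reads (21.6%), in shares of 26.0% and 27.2%, 4.40% and 30.3%, and 5.51% and 30.4%. Exon 8 ended 20.5% of the reads of D8 replicate 1 and none of replicate 2. Exon 11 was steadier, at 7.79% to 15.1% in the 6 libraries.

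**Figure D4:**
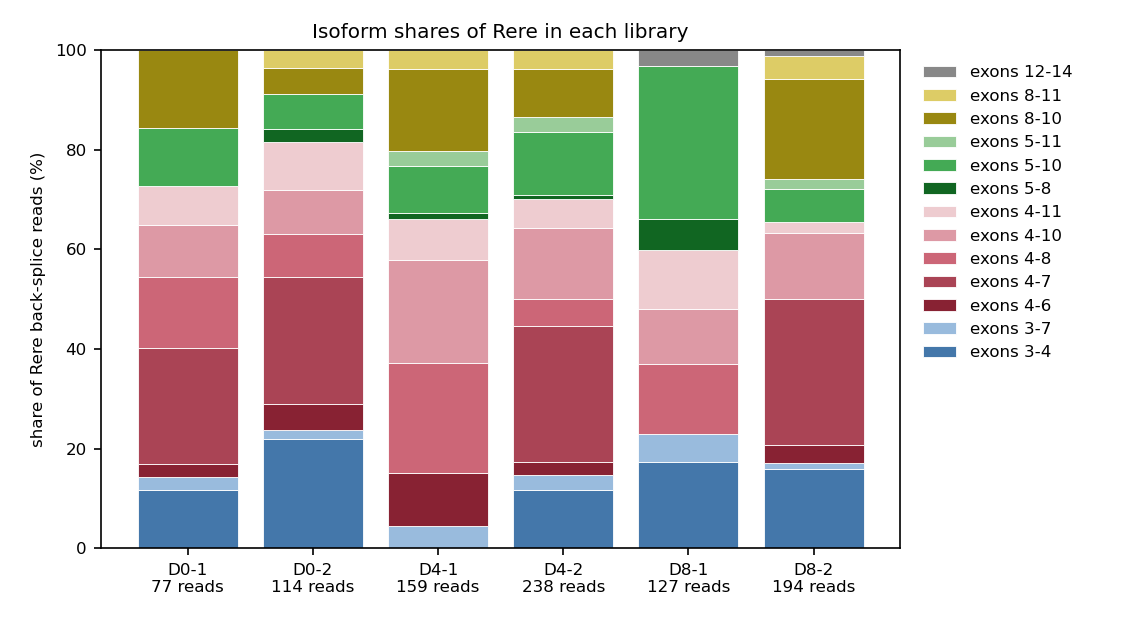
Share of Rere back-splice reads held by each of the 13 isoforms in each library (stacked bars from 0 to 100%, colors by start exon, read totals under the bars). Isoforms of exons 4 to 7 are missing from D4-1 and D8-1 and hold 23.4 to 29.4% of the other 4 libraries.

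The distance between the isoform shares of any pair of libraries, the percentage of reads that would have to move to another isoform, was compared next. It was 23.0 points between the D0 replicates, 42.3 between those of D4 and 62.2 between those of D8, a mean of 42.5. Between libraries of different stages it ran from 16.7 to 51.5 points with a mean of 36.5. An exact permutation test over libraries, one-sided for closer replicates, gave p = 0.933 and could not flag replicates that lie farther apart. The higher mean of the replicates rested on D8 replicate 2, for without that library it was 32.6 points, against 39.1 between stages. Without D8 replicate 1 the means were 32.6 and 31.4. With the isoforms that had an isolated 0 left out, the replicates lay 24.9 points apart at D0, 15.7 at D4 and 52.6 at D8 (31.1 on average). Pairs from different stages then lay 18.1 to 46.2 points apart (28.7 on average), so the D4 replicates were closer than any of these pairs and those of D8 farther apart than all of them. Leaving out D8 replicate 1 or 2 as well gave 20.3 points for replicates, against 25.01 and 29.8 between stages. D8 was the stage whose replicates differed most in both versions.

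A test of each isoform against the other isoforms of its gene (edgeR's diffSpliceDGE, 683 circRNAs of 264 genes) gave 0 of 7 Rere isoforms in each contrast, where 0.146% of circRNAs passed from D0 to D4, 0% from D0 to D8 and 0.146% from D4 to D8. The smallest edgeR p before adjustment was 0.423, 0.521 and 0.425 in these contrasts, so none of the 7 was under 0.05. Among all 683 circRNAs, 32, 34 and 29 were. Without circRNAs that had an isolated 0, 0 of the 3 Rere isoforms left passed in each contrast, where 0.183%, 0% and 0.366% of 546 circRNAs did.

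Next the evenness of the isoforms was compared with the other genes that had the most circRNAs. The isoform with the most reads over all libraries, mmu_circ_0001298, held 17.6 ± 13.8% of the reads of Rere over the 6 libraries (mean ± SD), with its 2 zeros counted as 0%. The isoform chosen in the same way held 35.4 ± 6.48% for Arhgap10, 43.6 ± 10.8% for Fndc3b, a fibronectin type III domain protein, and 36.6 ± 18.1% for Slc10a7, a member of the SLC10 transporter family. Rere minus Arhgap10 was -17.8 points on average, with Rere lower in 6 of 6 libraries (exact sign-flip permutation test, p = 0.0313, the smallest it can give, adjusted p = 0.0469 over 3 genes). Rere minus Fndc3b was -26.0 points, again with Rere lower in 6 of 6 (exact permutation, p = 0.0313, adjusted p = 0.0469). Against Slc10a7 the difference was -19.0 points, in 5 of 6 libraries (exact permutation, p = 0.156, adjusted p = 0.156). The number of isoforms differs between these genes, and Rere was itself chosen for having many. Where its leading isoform was at 0 another one led, mmu_circ_0001299 in D4 replicate 1 at 22.01% and mmu_circ_0001303 in D8 replicate 1 at 30.7%. With the top isoform taken anew in each library, a setting chosen after seeing the data, Rere was at 26.4 ± 3.39%, and the differences were -9.01 points from Arhgap10, -17.2 from Fndc3b and -20.4 from Slc10a7. Rere was lower in 6 of 6 libraries in each (exact permutation, p = 0.0313 and adjusted p = 0.0313 for each). With isoforms that had an isolated 0 left out, mmu_circ_0001300 led Rere at 28.7 ± 8.11%, and neither difference passed, at -6.97 points against Arhgap10, with Rere lower in 3 of 6 libraries (exact permutation, adjusted p = 0.25), and -15.9 against Fndc3b, lower in 5 of 6 (adjusted p = 0.141, exact permutation). Against Slc10a7 the difference was then -31.1 points, with Rere lower in 6 of 6 libraries (exact permutation, p = 0.0313, adjusted p = 0.0938).

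Counted another way, the Rere reads of a library were spread as over 6.56 to 8.68 equally abundant isoforms (the exponential of the Shannon entropy of the shares). The values were 7.64 and 8.28 at D0, 7.75 and 8.68 at D4, and 6.56 and 6.98 at D8. Both D8 libraries were the lowest. The part of read number and of isolated zeros in this was not tested.

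The parental genes whose circRNA total followed Rere most closely over the 6 libraries, by Pearson's r of log2(circCPM + 10) among 837 genes with a mean of 10 or more reads, were Rapgef6 (r = 0.975), Ube2w (0.958), Ap3b1 (0.938), Aagab (0.936) and Papd7 (0.891). Rapgef6, a guanine nucleotide exchange factor for Rap proteins, was at 664 and 929 circCPM at D0, 1300 and 2064 at D4, and 771 and 1125 at D8. It had a single circRNA, and like Rere it was higher in replicate 2 of each stage. These are the highest of 837 correlations over 6 points that share library totals, and they are given as a description.

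Genes of co-repressor complexes, nuclear receptors and retinoid signalling, together with some co-activators and histone methyltransferases, were described from a list of 44. Whether they act with Rere in these cells was not tested. A circRNA was listed for 20 of them, with 2453 reads on 37 circRNAs, and Nsd2, Ehmt1 and Ncor1 had the most. Nsd2, a histone H3 lysine 36 methyltransferase listed under its older symbol Whsc1, was at 5380 and 3559 circCPM at D0, 3808 and 3025 at D4, and 1322 and 1224 at D8. Both D8 libraries were the lowest. It fell by 1.73 on the log2 scale from D0 to D8 (SE 0.30, edgeR adjusted p = 0.0108), and its adjusted p was 0.0810 without D8 replicate 1 and 0.0971 without D8 replicate 2. It was the only one of the 14 genes tested that passed from D0 to D8, where 6.5% of all genes did. From D0 to D4 (8.66% of all genes) and from D4 to D8 (0.0903%), 0 passed. The list was chosen with earlier results of these data known, and the paper names Nsd2 as the parental gene of a changed circRNA. The pass of Nsd2 is therefore a description. Before adjustment, 1 of the 14 had an edgeR p under 0.05 from D0 to D4, beside 273 of all 1108 genes. From D0 to D8 there were 2, beside 269, and from D4 to D8 there were 3, beside 192. The median log2 fold change of the 14 was -0.26 from D0 to D4, -0.25 from D0 to D8 and -0.04 from D4 to D8.

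Ehmt1, a histone H3 lysine 9 methyltransferase that pairs with G9a, was at 1926 and 990 circCPM at D0, 743 and 1104 at D4, and 1014 and 1204 at D8. Ncor1, a nuclear receptor co-repressor, was at 897 and 1393, 1277 and 1200, and 661 and 1085. The stages of Ehmt1 overlapped. For Ncor1 both D4 libraries were above both D8 libraries, and D0 overlapped both. Rere circles, at 2557 to 5713 circCPM, were more abundant than those of Ehmt1 and Ncor1 in all 6 libraries. They were below those of Nsd2 in both D0 libraries and in D4 replicate 1, and above them in the other 3 libraries.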

How the data were processed

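White adipocyte circRNAs were counted in 6 libraries, 2 per stage. The authors removed linear RNA with RNase R, trimmed reads with fastp, mapped them to mm9 with BWA-MEM, called circRNAs with CIRI2, and deposited a raw count of back-splice reads per circRNA and library, without normalization. The submitters' processing notes also name FastQC 0.11.9 and HISAT2 2.2.0. In the table checked here, each circRNA had at least 2 reads in both libraries of at least 1 stage. The number of exons came from GENCODE vM1 (mm9).

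The members and the lists were chosen with earlier results of these data known. The text names all 13 Rere circRNAs, the other genes with 11 or more circRNAs, the 5 genes most like Rere, and from the list of 44 the genes that passed a test and the 3 most abundant.

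Counts were fitted on the whole table with edgeR 4.0.16 (quasi-likelihood, TMM, filterByExpr with a minimum count of 10 and minimum total of 15, Benjamini-Hochberg, threshold 0.05) in R 4.3.3, with stage as the only term. SEs are the log2 fold change over the root of F. The common dispersion was 0.219. Isoform usage was tested with diffSpliceDGE. DESeq2 1.42.0 was an alternative. Permutation tests used numpy 2.4.6 and were two-sided, except that of share distances, which was one-sided for closer replicates. Wilson intervals used scipy 1.17.1. Inverted matches were found with blastn 2.17.0 (e-value 1e-05). Simulated data with large changes only were used to test the fits. Alternatives were other scalings and filters, a replicate block, leaving out each library, and leaving out circRNAs with an isolated 0. Settings for share distances, the exon 4 start, Nsd2 and the top isoform of each library were chosen after seeing the data.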

Additional observations from a re-analysis of the deposited data

How the results depend on the processing

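Depth limits these results, since 1 read is 19.7 to 33.2 circCPM, 6 of the 13 Rere isoforms were too low to test, and 2 libraries per stage allow no exact permutation p below 0.0667 between stages. In the test over all 3 stages, 16 circRNAs of the table passed. There were 5 with column totals alone, 5 with a mean of 5 or more reads, 4 with a replicate block, 78 with DESeq2, 252 without circRNAs with an isolated 0 and 396 with no filter, and 2 to 58 with a library left out, the fewest without D4 replicate 2. From D0 to D4 the 46 calls became 17 with the block, 200 without isolated zeros and 4 to 67 with a library left out, with 4 when either D4 library was missing. From D0 to D8 the 21 became 4 with the block, 50 with DESeq2, 174 without isolated zeros and 11 to 27 with a library left out. From D4 to D8 the single call became 6 with DESeq2, 68 without isolated zeros and 0 to 15 with a library left out. The cause was not tested. Settings with another filter, without isolated zeros or with a library left out also tested other circRNAs, 1201 to 3662 in place of 1407.

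The Rere total passed only without isolated zeros (edgeR adjusted p = 0.0182), with isoforms in it that entered the table through D4 alone. With the block its adjusted p was 0.0988. The labels do not say whether same-numbered libraries were paired. Their deviations from the stage means correlated at 0.0348 to 0.0703 between stages over 1407 circRNAs, which cannot show whether they shared a preparation. The leading share of Rere minus that of Arhgap10 was -6.97 points without isolated zeros and -20.9 to -14.8 with a library left out, and minus that of Fndc3b -15.9 and -30.0 to -23.3. With the top isoform of each library the difference from Slc10a7, -20.4 points, passed too. With 5 libraries the smallest exact p is 0.0625, so those settings could not pass. Isoforms detected at D8 numbered 13 with reads in either replicate, 3 with 5 or more reads in both, and 8 to 11 with a library left out. The log2 fold change of mmu_circ_0001301 from D0 to D8 ran from -1.62 to 0.43 with a library left out and turned to 0.14 without D0 replicate 2 and 0.43 without D8 replicate 2. Over the alternatives run, no Rere isoform passed a contrast or the usage test, and in the test over all 3 stages Rere e12-e14 alone passed, with no filter (edgeR adjusted p = 0.0457).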
